A study of Homo sapiens with 12 samples.

Results

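The clustered protocadherins were described in the pooled ATAC-seq peak list of HT1080 cells, an established human fibrosarcoma line. The genes were taken from the RefSeq gene table (GRCh38.p14) as the coding genes on chromosome 5 whose symbol begins with PCDHA, PCDHB or PCDHG followed by a number, or by A, B or C and a number, together with the PCDHAC genes. This gave 53 of 20033 coding genes, 15 in the alpha cluster, 16 in the beta cluster and 22 in the gamma cluster. Deposited summits inside the clusters or within 50 kb of them numbered 54 of 188019, in 47 intervals. ATAC-seq cuts open chromatin with a transposase, so a summit marks a site where many fragments pile up. The cells had spent 48 h in rat tail type-I collagen at 0.3 mg/mL (Low), 1 mg/mL (Medium) or 1.7 mg/mL (High), with 4 libraries per concentration and 12 in all, in a study of how migration under confinement relates to accessible chromatin. All 3 groups received the broad matrix metalloproteinase inhibitor GM6001 at 20 µM, so no group shows cells without it, and all come from 1 cell line. The list analysed here pools the libraries and gives 1 value per summit with no library or concentration attached. No value below is therefore a comparison between collagen concentrations or has a replicate error, and the depth per library is unknown.

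Clustered protocadherins are cadherin-like surface proteins best known from neurons, where different cells display different combinations of them. The 3 clusters lie in tandem. In the alpha and gamma clusters each variable first exon has its own promoter and is spliced to a set of constant exons shared by the whole cluster, whereas beta genes are mostly single exons. Most of these promoters carry a conserved sequence element with the core CGCT, and the architectural protein CTCF together with cohesin is known to loop a chosen promoter to distal enhancers. Variable promoters are commonly methylated and silent unless chosen, while the C-type isoforms (PCDHAC and PCDHGC genes) are known for broader use.

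The promoter sequences are shown first, because the starts of these genes are what the summits were measured against. RefSeq (GRCh38.p14) windows of 250 bases before to 50 after the start were found for 46 of the 53 genes. The genes not matched at their start were PCDHA3, PCDHA13, PCDHB6, PCDHB11, PCDHGB2, PCDHGA12 and PCDHGC5. The following windows, all on the plus strand, belong to the gene with the strongest start summit in each cluster and to the first gene of each cluster without a summit within 1000 bp of its start. Capitals mark CGCT on either strand (AGCG is the same motif read on the other strand), and the start is base 251.
PCDHGC3: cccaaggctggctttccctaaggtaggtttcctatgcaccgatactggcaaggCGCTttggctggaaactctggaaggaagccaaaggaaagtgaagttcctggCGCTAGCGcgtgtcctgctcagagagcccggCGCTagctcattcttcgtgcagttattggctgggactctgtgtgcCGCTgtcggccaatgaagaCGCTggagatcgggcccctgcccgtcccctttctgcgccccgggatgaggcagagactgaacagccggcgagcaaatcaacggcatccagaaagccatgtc
PCDHB2: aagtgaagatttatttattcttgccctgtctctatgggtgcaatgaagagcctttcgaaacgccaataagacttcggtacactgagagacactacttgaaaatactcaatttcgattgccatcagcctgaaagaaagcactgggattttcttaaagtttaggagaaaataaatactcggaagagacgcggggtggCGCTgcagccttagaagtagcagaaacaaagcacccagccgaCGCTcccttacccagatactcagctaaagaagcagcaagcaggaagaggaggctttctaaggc
PCDHA11: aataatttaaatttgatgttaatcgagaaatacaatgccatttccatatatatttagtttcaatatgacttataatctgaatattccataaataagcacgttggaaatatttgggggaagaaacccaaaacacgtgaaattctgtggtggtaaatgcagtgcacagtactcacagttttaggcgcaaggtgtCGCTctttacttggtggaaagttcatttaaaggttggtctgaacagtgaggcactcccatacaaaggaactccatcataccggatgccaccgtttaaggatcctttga
PCDHA1: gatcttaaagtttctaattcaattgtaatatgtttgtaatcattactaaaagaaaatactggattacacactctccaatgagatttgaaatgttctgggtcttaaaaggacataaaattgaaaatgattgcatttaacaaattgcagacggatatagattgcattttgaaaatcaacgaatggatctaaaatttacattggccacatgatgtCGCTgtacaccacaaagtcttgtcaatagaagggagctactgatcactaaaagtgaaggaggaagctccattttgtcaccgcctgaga
PCDHB1: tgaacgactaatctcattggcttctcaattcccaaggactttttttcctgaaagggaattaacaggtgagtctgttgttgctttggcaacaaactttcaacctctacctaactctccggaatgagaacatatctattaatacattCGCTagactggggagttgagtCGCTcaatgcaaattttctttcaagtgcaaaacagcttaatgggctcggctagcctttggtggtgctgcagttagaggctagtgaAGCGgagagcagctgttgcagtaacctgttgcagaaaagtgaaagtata
PCDHGA3: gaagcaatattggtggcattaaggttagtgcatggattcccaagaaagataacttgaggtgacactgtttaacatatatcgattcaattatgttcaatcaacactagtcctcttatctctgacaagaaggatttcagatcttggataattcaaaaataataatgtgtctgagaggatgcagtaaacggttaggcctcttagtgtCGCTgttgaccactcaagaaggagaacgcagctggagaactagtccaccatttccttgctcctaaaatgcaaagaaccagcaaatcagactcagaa
These windows lie at chr5:141475716-141476015 (PCDHGC3), chr5:141094365-141094664 (PCDHB2), chr5:140868707-140869006 (PCDHA11), chr5:140785890-140786189 (PCDHA1), chr5:141051124-141051423 (PCDHB1) and chr5:141343579-141343878 (PCDHGA3). The summit fell on base 205 of the PCDHGC3 window, base 292 of the PCDHB2 window and base 272 of the PCDHA11 window. PCDHGC3 held 6 matches to CGCT, PCDHB1 3, PCDHB2 2 and each of the other 3 genes 1.

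The windows of a cluster shared short words that few other promoters had. The most frequent word of 9 bases on the gene's strand, picked from the sequences after they were read, was GATGTCGCT in the alpha cluster, in 9 of 13 windows. In the beta cluster it was GGTGGCGCT, in 13 of 14 windows. In the gamma cluster it was GCGCCGCTG, in 10 of 19 windows. Searched on both strands in 13819 coding promoters of the same length, these words were present in 0.145%, 0.709% and 1.82%. Each contains CGCT, which as a motif of its own is too common to set the family apart. CGCT was present in 45 of 46 protocadherin windows and in 81.3% of all coding promoters, and PCDHA9 was the gene without it. The following excerpts of 33 bases show the word in capitals with 12 bases on each side.
PCDHA2: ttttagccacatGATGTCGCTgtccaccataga
PCDHA4: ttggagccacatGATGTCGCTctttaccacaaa
PCDHA12: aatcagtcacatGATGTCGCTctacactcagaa
PCDHB2: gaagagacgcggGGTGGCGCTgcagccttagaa
PCDHB5: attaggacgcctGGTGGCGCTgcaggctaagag
PCDHB8: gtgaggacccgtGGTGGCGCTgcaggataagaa
PCDHB13: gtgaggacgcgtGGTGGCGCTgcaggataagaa
PCDHB14: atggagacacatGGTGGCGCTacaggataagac
PCDHGA1: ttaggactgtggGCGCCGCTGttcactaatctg
PCDHGA11: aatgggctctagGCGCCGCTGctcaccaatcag
The alpha excerpts lie on the plus strand at chr5:140794780-140794812 (PCDHA2), chr5:140806978-140807010 (PCDHA4) and chr5:140875243-140875275 (PCDHA12). The beta excerpts lie at chr5:141094543-141094575 (PCDHB2), chr5:141135178-141135210 (PCDHB5), chr5:141177776-141177808 (PCDHB8), chr5:141213864-141213896 (PCDHB13) and chr5:141223262-141223294 (PCDHB14), and the gamma excerpts at chr5:141330403-141330435 (PCDHGA1) and chr5:141420972-141421004 (PCDHGA11). The first base of the word lay 43 to 86 bases before the start in the alpha genes, 2 to 84 in the beta genes and 44 to 99 in the gamma genes. The word was present at starts with and without a summit. Of the genes with the word, 2 of 9 alpha, 6 of 13 beta and 1 of 10 gamma genes had a summit within 1000 bp. The share of all coding genes was 63.7%. Among the excerpted genes PCDHB2, PCDHB5, PCDHB8, PCDHB13 and PCDHGA1 had one within 150 bp of the start. PCDHA2 had one at 270 bp, whereas PCDHA4, PCDHA12, PCDHB14 and PCDHGA11 had none within 1000 bp. The core of the CTCF motif, searched on either strand as fixed letters with some open positions, matched 1 of 46 windows, that of PCDHB9, and 13.0% of all coding promoters. TATAA on either strand was present in 17 of 46 windows (37.0%) and in 17.1% of all coding promoters. A match or its lack says only whether these letters occur in the window.

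Fewer protocadherin starts carried a summit than coding genes in general. A summit lay within 1000 bp of the start at 19 of 53 genes (35.8%), and 63.7% of the 15842 coding genes whose strand is in the promoter table did so. The beta cluster had 8 of 16, the alpha cluster 5 of 15 and the gamma cluster 6 of 22. Of the 5 C-type genes 4 had one, PCDHAC1, PCDHAC2, PCDHGC3 and PCDHGC5, and PCDHGC4 had none. Of the other 48 genes 15 did. Within the gamma cluster the count was 2 of 12 for the PCDHGA genes and 2 of 7 for the PCDHGB genes. With summits limited to a deposited −log10 q of at least 10, the count was 10 of 53 (18.9%) and the share of all coding genes 59.3%. At that limit 6 gamma, 4 beta and 0 alpha genes remained in the count. Of the C-type genes PCDHGC3 and PCDHGC5 remained, and PCDHAC1 and PCDHAC2, with a −log10 q of 5.33 and 2.62, did not. Genes of these clusters share a region, and the shares are descriptions without a test.

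**Figure D1:**
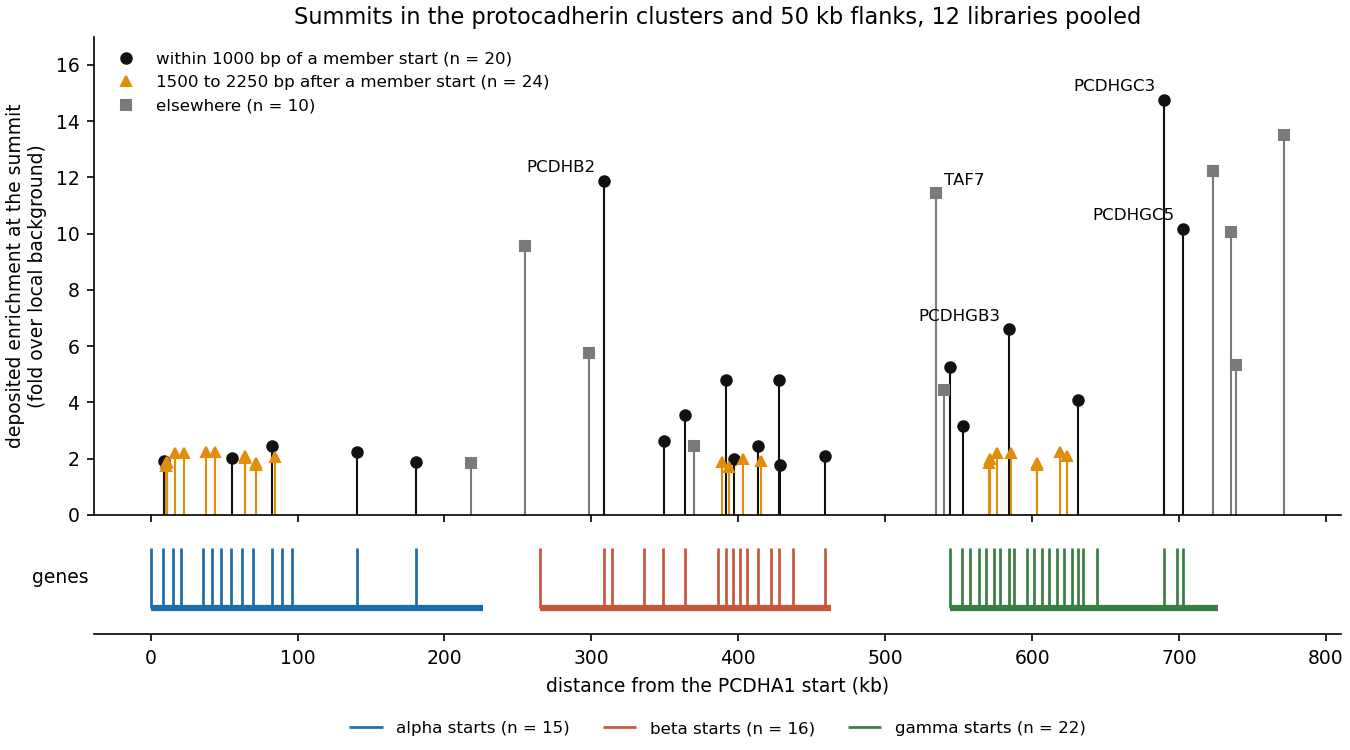
Deposited enrichment (fold over the local background) at each of 54 summits, plotted by distance from the PCDHA1 start in kb, with the 53 gene starts and the extent of the 3 clusters drawn underneath. Summits in the alpha cluster stay at or below 2.44, and the high summits lie between the alpha and beta clusters, at PCDHB2, at TAF7 and from PCDHGC3 onward.

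The start summits that were found were mostly weak. The highest deposited enrichment per gene (fold over the local background at the summit) had a median of 3.14 over the 19 genes, with a range of 1.88 to 14.8, against a median of 12.3 over the 10093 coding genes with a start summit. The median was 2.02 for the alpha genes, 3.10 for the beta genes and 5.94 for the gamma genes. The highest alpha value, 2.44 at PCDHA11, was at or above that of 6.53% of coding genes with a start summit. Fragment pileups recovered from the deposited enrichment and p gave the depth behind these values. The alpha pileups were 39 to 51 fragments over a background of 20.3, the genome-wide level. Exact Poisson 95% intervals, which cover counting error only, ran from 27.7 to 53.3 for 39 fragments and from 38.0 to 67.1 for 51. These intervals overlap, so the 5 alpha start summits cannot be ranked at this depth.

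The strongest start summits were at PCDHGC3, PCDHB2 and PCDHGC5. PCDHGC3, a C-type isoform, reached an enrichment of 14.8 with 693 fragments piled up (95% interval 642 to 747) in the interval chr5:141475671-141476587, with the summit 46 bp upstream of the start. This was the only one of the 53 genes above the median of all coding start summits, at percentile 72.9. PCDHB2 reached 11.9 with 259 fragments (228 to 293) in the interval chr5:141094394-141095044, 41 bp downstream of its start. PCDHGC5, the last variable exon of the gamma cluster, had 10.2 and a pileup of 619 (571 to 670), 150 bp upstream of its start. Enrichment divides the pileup by the local background, which was 59.9 fragments at PCDHGC5, 46.0 at PCDHGC3 and 20.9 at PCDHB2. The 3 lowest values were at PCDHAC2 with an enrichment of 1.88, PCDHA2 with 1.92 and PCDHB16 with 1.97. Their pileups were 39, 40 and 41 fragments, and their summits lay 438, 270 and 563 bp downstream of the start.

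Between these ends the beta genes were mixed in order with the gamma genes and with the alpha genes. The lowest gamma value, 3.14 at PCDHGA2, was above the highest alpha value, 2.44 at PCDHA11, although the counting intervals of these genes overlap. PCDHGB3 had an enrichment of 6.61 and 140 fragments, and PCDHGA1, the first gene of the gamma cluster, had 5.26 and 130 fragments. PCDHB8 had 4.80 and 122 fragments, and PCDHB13 had 4.78 and 101 fragments. The windows of PCDHB8 and PCDHB13 share an identical run of at least 50 bases. Whether paired reads of 150 bp were placed at the wrong gene was not tested, so the values of both genes are uncertain. PCDHGB7 had 4.10 and 92 fragments, PCDHB6 had 3.56 and 75, and PCDHGA2 had 3.14 and 66. The weakest of this group were PCDHB5 with 2.63 and 55 fragments, PCDHB11 with 2.44 and 51, and PCDHB15 with 2.11 and 44. In the alpha cluster PCDHAC1 had 2.25 and 47 fragments and PCDHA8 had 2.02 and 42. PCDHGB4 and PCDHGB5 also share a run of 50 bases, and neither had a start summit.

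**Figure D2:**
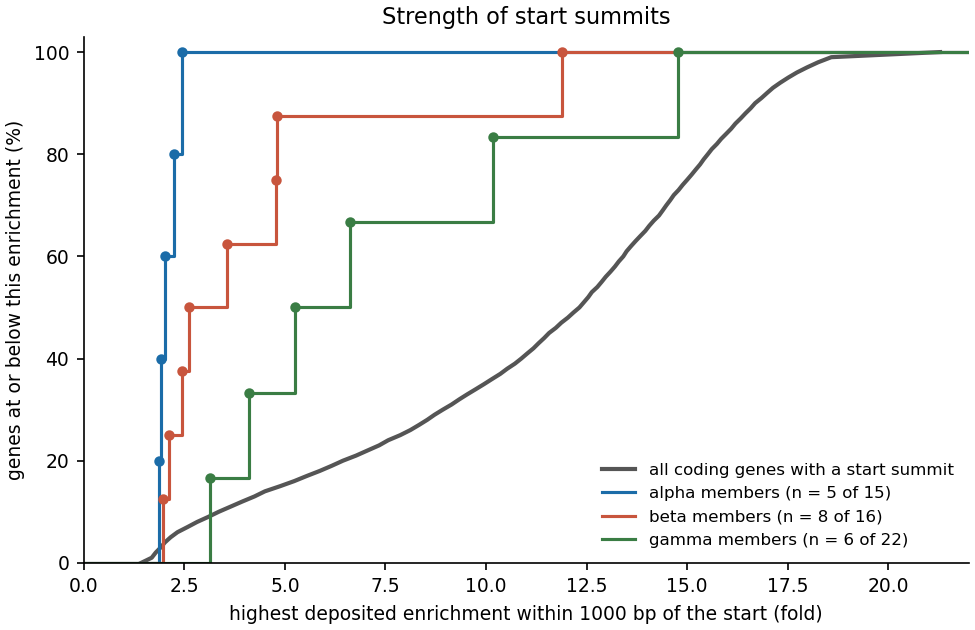
Cumulative share of genes (%) by the highest deposited enrichment within 1000 bp of the start (fold), among the genes with a start summit (alpha 5 of 15, beta 8 of 16, gamma 6 of 22, each gene a point) and among 10093 coding genes with one (grey). The protocadherin values are mostly low on the grey curve, with the alpha genes between 1.88 and 2.44.

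Start summits of the beta and gamma genes lay close to the start, and those of the alpha genes mostly did not. The strongest start summit was within 150 bp at 7 of 8 beta genes and at 6 of 6 gamma genes, and at 1 of 5 alpha genes, PCDHA11. This made 14 of the 19 genes with a start summit (73.7%), against 64.3% of the coding genes with one. Counted over all genes, with or without a start summit, the shares were 14 of 53 (26.4%) and 41.0%, the reverse order. In the 13 beta and gamma genes the summit ranged from 150 bp upstream to 58 bp downstream, with a median of 7 bp upstream. PCDHA11 had its summit 21 bp downstream of the start. For the other 4 alpha genes it was 270 to 593 bp downstream. All genes whose strongest start summit lay beyond 150 bp, those 4 and PCDHB16 at 563 bp, also had weak ones, with enrichments of 1.88 to 2.25. PCDHB13 had a further start summit at 548 bp, with 1.78 and 37 fragments, beside its stronger one 15 bp upstream. PCDHB15, with 2.11, was as weak as those 5 genes but had its summit 36 bp from the start. Whether distance goes with the cluster or with weakness was not tested. The median distance was 41 bp over the 19 genes and 102 bp over all coding genes with a start summit.

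A second group of weak summits lay well downstream of the starts. Windows of 1500 to 2250 bp downstream, set after the positions were seen, held a summit at 18 of 53 genes (34.0%), against 4.08% of all coding genes. In 13 of them (24.5%) no summit lay within 1000 bp of the start, against 1.95% of all coding genes. The alpha cluster contributed 8 of its 15 genes, the gamma cluster 6 of 22 and the beta cluster 4 of 16. Enrichment of the strongest such summit per gene ranged from 1.69 to 2.25 and the pileup from 38 to 47 fragments, a narrow range whose counting intervals overlap. The deposited −log10 q was 1.95 to 5.33, so at a limit of 10 none of the 18 was left, and at a limit of 3, also chosen afterwards, 12 were. Because the limits of the window enclose the summits that were seen, the shares describe these genes and support nothing further.

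The alpha genes with a downstream summit were PCDHA2, PCDHA3, PCDHA4, PCDHA5, PCDHA6, PCDHA9, PCDHA10 and PCDHA11. PCDHA5 and PCDHA6 had the highest enrichment, 2.25 with 47 fragments each, at 2057 and 1674 bp from the start. PCDHA3 and PCDHA4 followed with 46 fragments each, at 1992 and 1796 bp. PCDHA2 and PCDHA11 had both a start summit and a downstream one, at 2142 and 1629 bp. In the gamma cluster the genes were PCDHGA4, PCDHGB2, PCDHGB3, PCDHGB4, PCDHGA9 and PCDHGB6. PCDHGA9 had the highest of these, 2.25 with 47 fragments at 2211 bp. The beta genes were PCDHB7, PCDHB8, PCDHB9 and PCDHB11, with enrichments of 1.69 to 1.97 at 1906 to 2159 bp. These 4 beta genes are 2750 to 4381 bp long in the gene table, so the summits lie within the gene. Exon boundaries of the alpha and gamma genes were not used here. First exons of the family resemble each other in sequence, and how reads with several possible positions were treated is not given in the sources used here, so the assignment of these weak summits to single genes is uncertain.

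**Figure D3:**
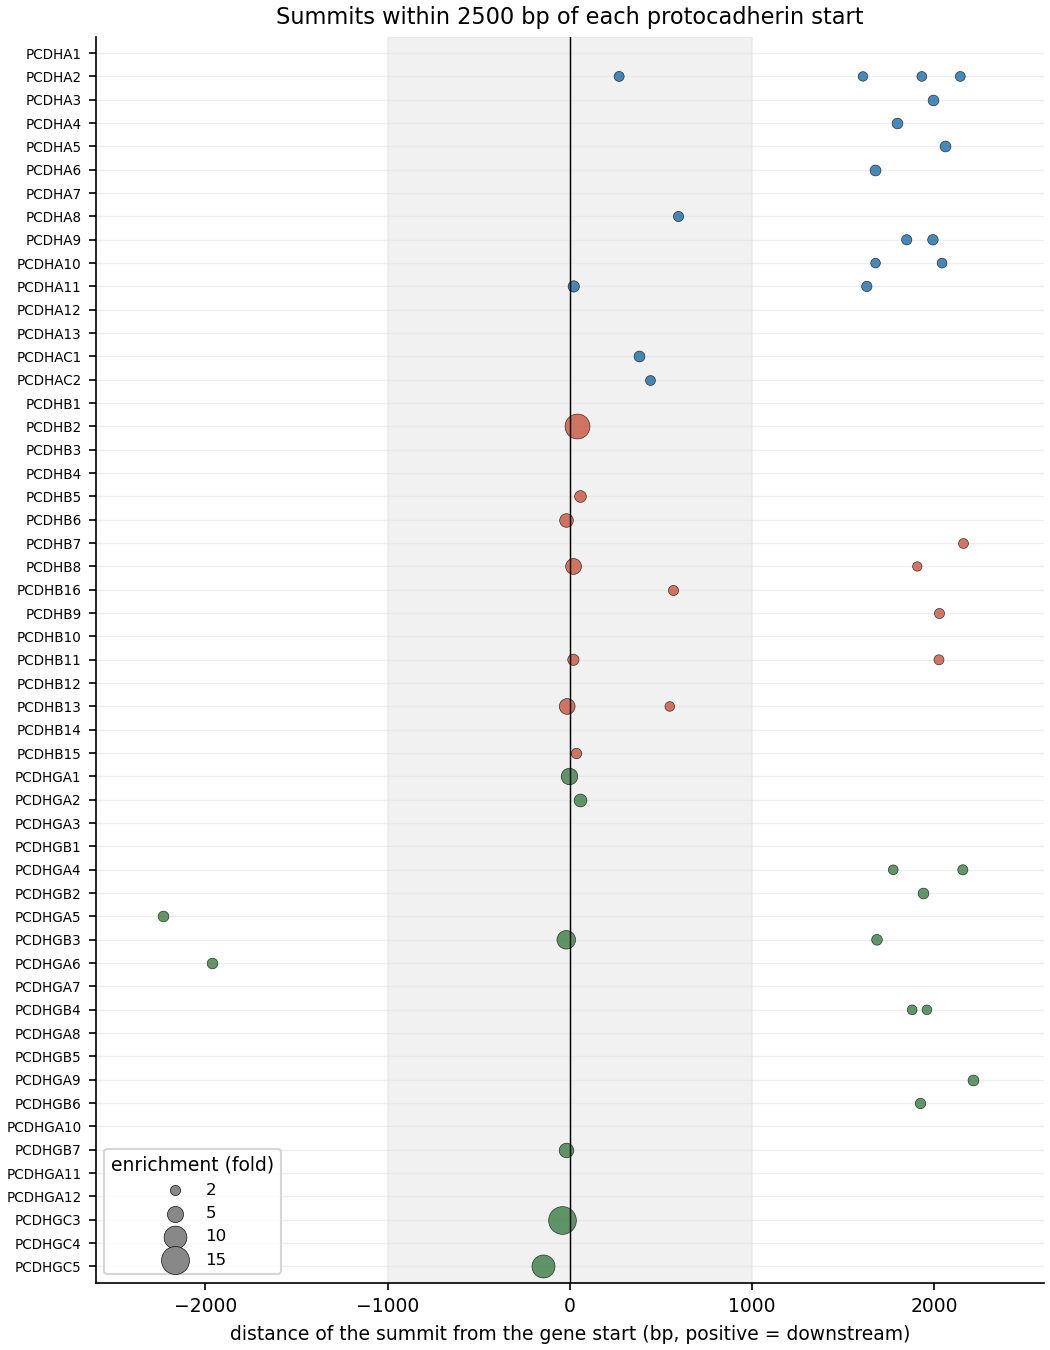
Position of every summit within 2500 bp of each gene's start (bp, positive is downstream), 1 row per gene in genomic order, with circle area proportional to the deposited enrichment and the 1000 bp window shaded. Large circles sit on the start line in the beta and gamma rows, and small circles form a second column at 1629 to 2211 bp (strongest per gene) in all 3 clusters.

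The remaining genes had the downstream summit described above, lay near the summit of another gene, or had none within 2500 bp. The nearest summit was 1000 to 2500 bp away at 15 genes. In 13 of these it was the downstream summit already described. At PCDHGA5 it was 2231 bp upstream and at PCDHGA6 1964 bp upstream, and these were the downstream summits of PCDHGB2 and PCDHGB3. No summit lay within 2500 bp of the start at 19 genes, 4 alpha, 6 beta and 9 gamma. The alpha genes were PCDHA1, PCDHA7, PCDHA12 and PCDHA13. The beta genes were PCDHB1, PCDHB3, PCDHB4, PCDHB10, PCDHB12 and PCDHB14. The gamma genes were PCDHGA3, PCDHGB1, PCDHGA7, PCDHGA8, PCDHGB5, PCDHGA10, PCDHGA11, PCDHGA12 and PCDHGC4. A site below the deposited threshold (a q-value of 0.05) is not in the list, so a lack of a summit does not show closed chromatin. The lowest pileup among the 54 summits was 36 fragments.

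Pseudogenes of the family were looked up as well, but no share over all pseudogenes was computed, so their count is a description only. Of PCDHA14, PCDHB17P, PCDHB18P, PCDHB19P, PCDHGB8P and PCDHGB9P, PCDHB17P had a summit within 1000 bp of the lower end of the gene, 20 bp from it. Its enrichment of 2.44 and pileup of 51 fragments equalled those of PCDHB11.

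Protocadherin promoters held few CpG dinucleotides. The median was 7 CpG per window of 300 bases over 46 genes and 22 over all coding promoters. GC content had medians of 39.7% and 62.7%. Protocadherin genes with a start summit had a median of 8 CpG (n = 16) and those without had 7 (n = 30), with ranges of 3 to 27 and 2 to 23 that overlap. Over all coding genes the medians were 27 with a start summit and 6 without. Among promoters with at most 10 CpG, a limit picked afterwards, 12 of 35 protocadherin genes (34.3%) had a start summit, and 23.5% of 3889 coding genes did. Many of the 12 were weak. PCDHA2, PCDHA8, PCDHA11, PCDHB5, PCDHB15 and PCDHB16 had a −log10 q of 2.92 to 8.60. Only PCDHB2, PCDHB8, PCDHB13, PCDHGA1, PCDHGA2 and PCDHGB3 reached 10. The share of low-CpG coding genes at that limit was not computed, so the order of the 2 shares may not hold there. The C-type promoters stood apart in composition, with a GC content of 66% at PCDHAC1, 63% at PCDHAC2, 59% at PCDHGC3 and 60.7% at PCDHGC4. PCDHGC4 had no summit within 2500 bp, so this composition was shared by C-type starts with and without one.

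**Figure D4:**
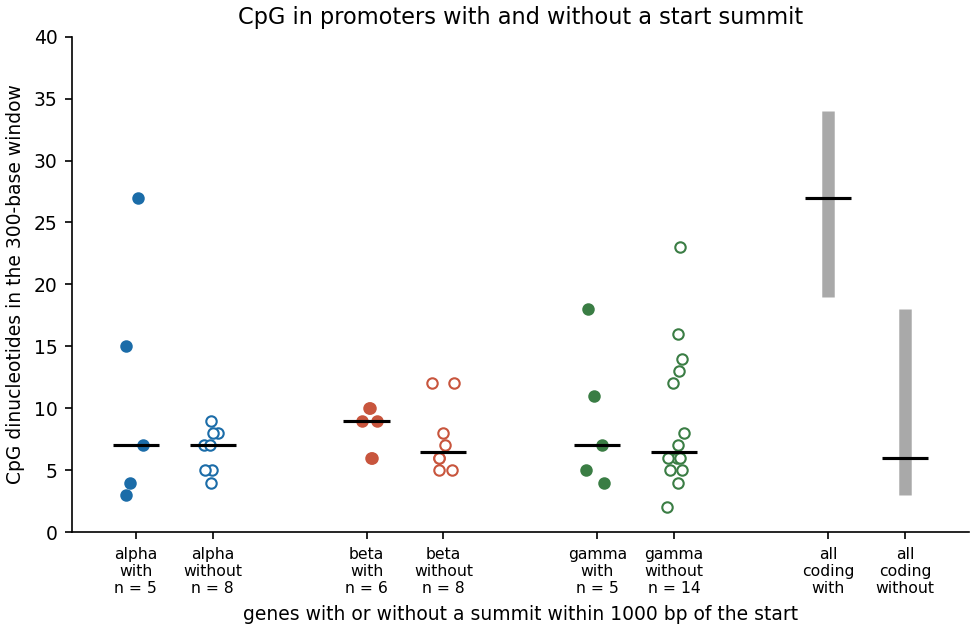
CpG dinucleotides per promoter window of 300 bases for protocadherin genes with (filled) and without (open) a start summit in each cluster, with medians as black lines, beside medians and quartiles (grey bars) of all coding genes. The protocadherin groups overlap, with medians of 6.5 to 9, whereas the coding genes have medians of 27 and 6.

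Away from the protocadherin starts, the strongest summits lay at the 3′ side of the gamma cluster, at the start of TAF7 and between the alpha and beta clusters. Of the 54 summits 20 were at a protocadherin start, 24 were in the downstream windows only, and 10 lay elsewhere. Between the end of the alpha cluster and PCDHB1 there was 1 summit, at 141041291 on chromosome 5 (interval chr5:141041071-141041418). It had an enrichment of 9.57 and 203 fragments (176 to 233), 10.1 kb upstream of PCDHB1, and was outside every gene of the table. The enhancer HS5-1 of the alpha cluster is known to lie between the alpha constant exons and the beta genes, but its position is not in the tables used here and was not matched. In the beta cluster a summit at 141084637 lay 9978 bp upstream of PCDHB2, with an enrichment of 5.77 and 122 fragments. The alpha summit farthest from a start, at 141004321, lay in the shared constant region with an enrichment of 1.83 and 38 fragments.

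The gap of 81.1 kb between the beta and gamma clusters holds 2 coding genes. TAF7, a subunit of the general transcription factor TFIID, had a start summit with an enrichment of 11.4 and 277 fragments, 15 bp downstream of its start. SLC25A2, a mitochondrial carrier, had no summit in its body. A further summit at 141326257, with an enrichment of 4.43 and 100 fragments, lay 4257 bp upstream of PCDHGA1. On the 3′ side of the gamma cluster, a summit at 141509252 in the part shared by all gamma genes had an enrichment of 12.2 and 1393 fragments (1321 to 1468), the highest pileup of the 54. Beyond the cluster the body of DIAPH1, a formin that nucleates actin filaments, held 3 summits within 50 kb of the cluster. They lay at 141521421, 141524898 and 141557881, with enrichments of 10.0, 5.32 and 13.5 and pileups of 1025, 540 and 1133 fragments. The one at 141557881 was 430 bp upstream of the start of the antisense gene DIAPH1-AS1 and is thus a start summit of that gene. The local background at these 4 summits was 83.0 to 113 fragments, above the 20.3 found at 39 of the 54. The enhancers known for the beta and gamma clusters lie downstream of the gamma genes, and their positions were not matched either.

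Counted per length, the alpha cluster held no strong summit, and how the beta and gamma clusters compared with chromosome 5 turned on whether long intervals were counted. There were 79.6 summits per Mb in the alpha cluster, 75.8 in the beta cluster and 76.7 in the gamma cluster, against 57.6 on chromosome 5. In intervals of at most 10 kb there were 32.8 on chromosome 5 and 36.7 on all autosomes. At a −log10 q of at least 10 the densities were 0, 25.3 and 32.9 per Mb, against 45.8 on chromosome 5. In intervals of at most 10 kb they were 21.7 on chromosome 5 and 24.4 on all autosomes, so the beta and gamma clusters were below the first value and above the others. The median enrichment of summits was 2.02, 2.44 and 2.23 in the alpha, beta and gamma clusters, 5.02 on chromosome 5 and 3.94 there in intervals of at most 10 kb.

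Genes related to the clusters by function were read against all coding genes, of which 63.7% had a start summit, with a median enrichment of 12.3. All 14 measured genes of 16 listed factors known to act on these clusters (CTCF, cohesin and its loaders and releasers, and silencing factors) had a start summit, with a median enrichment of 12.7, near that of all coding genes, and a range of 6.82 to 16.8. CTCF, which binds the promoters and enhancers of the clusters, had 16.6, and SMC3, a cohesin subunit, had 12.5. SMCHD1, a silencer of clustered protocadherins, had 10.8, and DNMT1, the maintenance DNA methyltransferase, had 14.5. Of the non-clustered protocadherins 6 of 10 (60%) had a start summit, a share near that of all coding genes, with a median of 4.61. PCDH9 had the highest, 16.7, followed by PCDH1 with 5.98 and PCDH18 with 5.53. PCDH12, PCDH15, PCDH17 and PCDH19 had none. Only 2 of 8 listed classical cadherins were measured, and of these N-cadherin (CDH2) had 8.95 and CDH4 2.47. Of 4 measured kinases and partners reported to bind clustered protocadherins, FYN had 16.9, AXIN1 12.9 and WNK1 10.5, and RET had none. HOX genes are another family in tandem clusters. Of the 20 whose strand is in the promoter table, 9 (45%) had a start summit, with a median of 3.99, and other HOX genes were not measured.

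Markers were consulted for the cell type label, beside the 63.7% of all coding genes with a start summit. Starts could be placed for 5 of 10 mesenchymal, 2 of 8 epithelial, 6 of 8 neuronal and 2 of 5 leukocyte markers. Start summits were present at 5 of 5 mesenchymal markers (FN1 15.1, ZEB1 8.74, S100A4 6.65, VIM 6.64 and PDGFRB 3.70). They were also present at 1 of 2 epithelial markers (KRT8, 12.7), 3 of 6 neuronal markers (SYP 17.3, MAP2 17.1 and TUBB3 4.05) and 0 of 2 leukocyte markers. These few markers do not check the label. Accessibility at a start is not expression, and the list has no value per cell type.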

How the data were processed

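Labels' protocols record embedding at 100000 cells/mL in 800 µL gels, collagenase digestion, freezing, Omni-ATAC on up to 25000 cells, 11 PCR cycles and paired reads of 150 bp. Per the submitters' processing notes, fastp 0.20.0, Bowtie2 2.4.3, SAMtools, deepTools 3.5.0, MACS2 2.2.7.1 and build hg38 were used; read filters, duplicates and any control are not given in the sources used here. The authors deposited 1 pooled peak list of 10 columns without a header. Its enrichment is a ratio (fold over local background), its p-value and q-value columns are −log10 values deposited by the authors, and the deposited score is a whole-number peak score, not used further. The summit is the interval start plus the deposited offset, printed counting from 1.

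From the enrichment and −log10 p, the pileup and background were solved jointly (enrichment = (pileup + 1)/(background + 1), p the Poisson upper tail). This gave whole pileups, within 0.05, in 99.96% of lines and at all 54 summits. The solver recovered all 2000 simulated pileups. These were made with the same formulas, so their recovery checks the solving step and not whether the list follows the formulas. Whether the pileup counts fragments or extended reads is not given.

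Starts came from the RefSeq table (GRCh38.p14). The promoter table gives the strand of 47 of the 53 genes, always plus; the other 6 were taken as plus. Coding genes without a strand there were left out of the background (15842 of 20033 kept), as were listed genes.

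Named genes were every gene with a start summit, the 3 strongest and weakest in full, genes with the nearest summit at 1000 to 2500 bp, the 10 strongest summits away from starts, and coding genes between or beside the clusters. The genes and lists were chosen with earlier results of these data known. No test was run: the list has no replicates, and p-values between concentrations were not computed. Python 3.11.15, numpy 2.4.6, pandas 2.3.3, scipy 1.17.1 and numba 0.67.0 were used.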

Additional observations from a re-analysis of the deposited data

How the results depend on the processing

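No paired analysis was possible because the pooled list carries no value per library, and for the same reason leaving out single replicates was not run. With a window of 2500 bp, protocadherin starts with a summit rose in number from 19 to 34 (alpha 5 to 11, gamma 6 to 13), through the downstream summits, and HOX genes went from 9 to 14. With a −log10 q of at least 10, the counts were 10 starts (alpha 0, beta 4 of 8), 18 of 54 summits in the region, 0 of 18 genes with a downstream summit, 1 of 2 classical cadherins and 5 HOX genes. A window of 150 bp, chosen after the data were seen, left 1 alpha start. The median enrichment was 3.14 in the main setting and between 2.23 and 5.03 under the 7 alternatives. Its 95% interval over the 19 genes (2.11 to 5.26) treats genes that share a region as independent. It is therefore not a replicate error and no yardstick for these changes. Counting the strongest summit of each interval, interval overlap or either gene end gave 19 starts. Weak summits of 36 to 55 fragments, 36 of the 54, are where the pooled depth limits what can be said.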
